A study of Mus musculus with 17 samples.

Results

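Transcripts of cell cycle and DNA replication genes were compared between infarcted and sham-operated mouse hearts 5 days after surgery, by MACE, a sequencing method that counts the 3' ends of mRNAs. The set holds 45 genes, taken as the features of the count table whose identifiers map to 45 given gene symbols, out of 31647 features in all. By the phase in which their products act or are mainly made, 8 were grouped as G1 genes, 10 as S genes and 27 as mitotic genes, a group that also takes in G2. All mice were male wild-type C57BL/6J animals, aged 8 to 11 weeks. The left anterior descending artery of 9 animals was ligated permanently, and their infarct zone (IZ) was sampled. Sham surgery without ligation was done in 8 animals, of which left ventricular tissue was taken. Both groups had surgery under isoflurane after an injection of buprenorphine, and no other agent or transgene was named. Each library came from 1 piece of whole tissue with all its cell types, so a rise can come from more cells of a type or from more RNA per cell, and these cannot be told apart.

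Cells that leave rest first make D-type cyclins, which act with Cdk4 and Cdk6 in G1, and then E-type cyclins, which act with Cdk2. Genes for DNA replication, such as the Mcm helicase subunits, and for deoxynucleotide synthesis are switched on by E2F factors at the passage into S phase, while genes of G2 and mitosis follow later under B-Myb, FoxM1 and the MuvB complex. Adult cardiomyocytes have mostly left the cell cycle, and in a healing infarct fibroblasts, macrophages and endothelial cells are the cells best known to divide.

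Sham libraries ranged from 1820809 to 4257919 counts and IZ libraries from 1237675 to 4738307, and 1 count stood for 0.139 to 0.792 CPM (counts scaled to a common library size by TMM, the trimmed mean of M values). Transcript levels of cell type markers differed between the groups. All 10 cardiomyocyte markers were lower in the IZ, 7 of 8 fibroblast markers and 8 of 8 macrophage markers were higher, 0 of 8 endothelial markers were higher and 3 lower, and 4 of 8 smooth muscle and pericyte markers were higher and 3 lower. Of all 12301 genes tested, 36.3% were higher and 33.1% lower. The shares of lower endothelial markers and of changed smooth muscle and pericyte markers were near these, and nothing is read from them. The summed cardiomyocyte markers ran from 78050 to 92720 CPM in sham and from 3349 to 7876 CPM in IZ replicates 2 to 9, but IZ replicate 1 stood apart at 33750 CPM. It also had 19.5% mitochondrially encoded counts against 4.22 to 6.78% in the other IZ libraries and 22.9 to 32.4% in sham. Summed macrophage markers ran from 409.5 to 583.6 CPM in sham and from 3796 to 5674 CPM in IZ replicates 2 to 9, with 2225 CPM in IZ replicate 1, and summed fibroblast markers ran from 1541 to 2981, from 14880 to 20690 and 12690 CPM in the same order. Of 8 T and NK cell markers 0 had enough counts to be tested, with a summed level of 0 to 3.68 CPM in sham and 4.88 to 22.2 CPM in the IZ, and Cd8a had 0 counts in sham. Of 5 neutrophil markers 2 were tested and both were higher (S100a8 at 3.19 and S100a9 at 2.93 on the log2 scale), with sums of 3.47 to 11.7 CPM in sham and 8.34 to 149.7 CPM in the IZ, while Ly6g and Mpo had 0 counts in sham and at most 1 and 7 in the IZ. Of 6 B cell markers 2 were tested and both were higher (Ighm at 2.57 and Cd79b at 2.25). Sums of the B cell markers ran from 8.36 to 19.8 CPM in sham and from 16.99 to 373 CPM in the IZ. The IZ median was only 25.3 CPM, the lowest IZ sum lay within the sham range, and the highest was that of IZ replicate 2. Most fibroblast markers, all macrophage markers and the tested neutrophil and B cell markers were thus higher in the IZ, like most genes described next. This is a shared direction between the groups and not a match of levels across libraries. The part of these cell types in each difference was not tested.

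Most of the set was higher in the IZ, by phase to very different degrees. In edgeR's quasi-likelihood test across all genes, with Benjamini-Hochberg adjusted p values and a threshold of 0.05, 37 of the 43 members with enough counts were higher, 2 were lower and 4 passed in neither direction. Of all 12301 genes tested, 69.5% passed, with 36.3% higher and 33.1% lower. The median log2 fold change was 2.79 over the 43 members and 0.05 over all genes tested. By phase it was 0.20 for G1, 1.75 for S and 3.28 for mitotic genes. A log2 fold change of more than 2 was reached by 0 of 7 tested G1 genes, 3 of 10 S genes and 23 of 26 mitotic genes, against 8.33% of all genes tested. Every IZ library lay above every sham library for 1 G1, 8 S and 22 mitotic genes, against 16.6% of all genes tested.

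**Figure D1:**
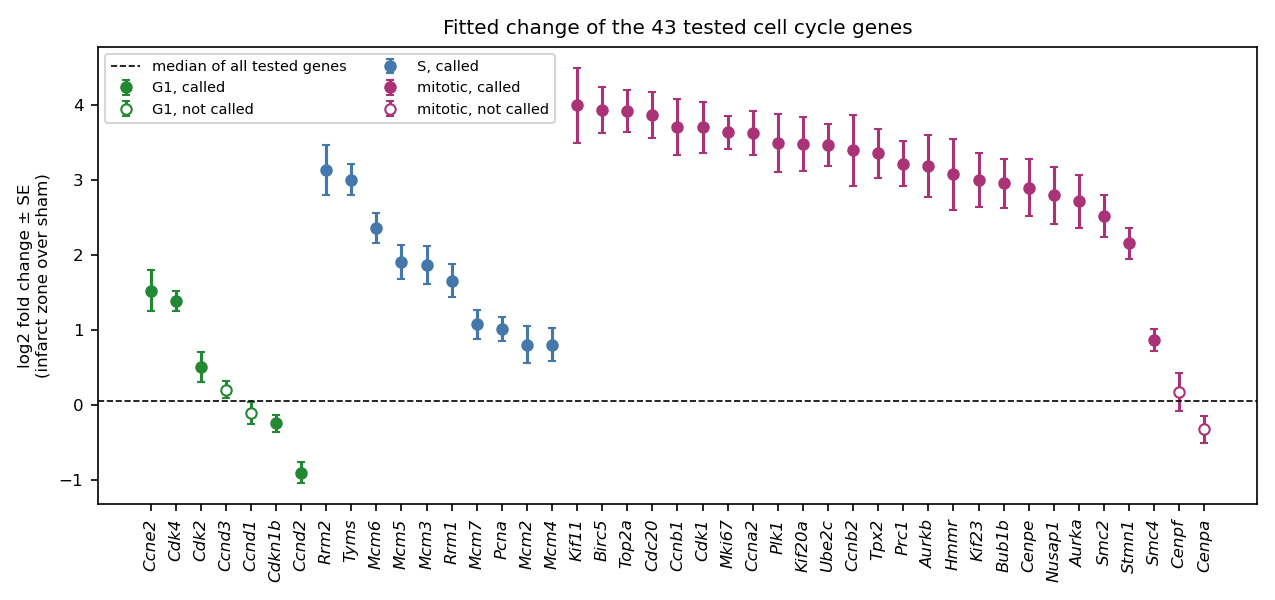
Fitted log2 fold change of the IZ over sham with its SE for the 43 tested members, sorted within phase (green G1, blue S, purple mitotic), with filled circles for genes called at an adjusted p under 0.05 and open circles for the others. The dashed line is the median of all genes tested, 0.05. The G1 genes scatter around it from -0.91 to 1.52, while the 24 mitotic genes called higher run from Smc4 at 0.86 to Kif11 at 3.99.

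The filter on low counts shapes these numbers. Of the 45 members, 25 did not reach the filter's level in any sham library, and 23 had fewer than 10 counts in every sham library, so those of them that were tested, all but Ccne1 and Bub1, passed the filter through their IZ counts and had to differ. With no filter, which tests all 45, 39 were higher, 1 lower and 5 passed in neither direction, against 20.9% higher among 27668 features. The 9 members above the filter's level in every sham library were Ccnd1, Ccnd2, Ccnd3, Cdk4, Cdkn1b, Mcm7, Pcna, Cenpa and Smc4. Of these 4 were higher, 2 lower and 3 passed in neither direction. They were 5 of the 8 G1, 2 of the 10 S and 2 of the 27 mitotic genes. The S genes among them, Mcm7 (1.07) and Pcna (1.01), had larger log2 fold changes than the mitotic Smc4 (0.86) and Cenpa (-0.33, not passing). Mitotic genes were thus not above S genes in this subset, with only 2 genes each, and the contrast between mitotic and S genes rests on genes scarce in sham. The 5 G1 genes of the subset ran from -0.91 (Ccnd2) to 1.38 (Cdk4).

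**Figure D2:**
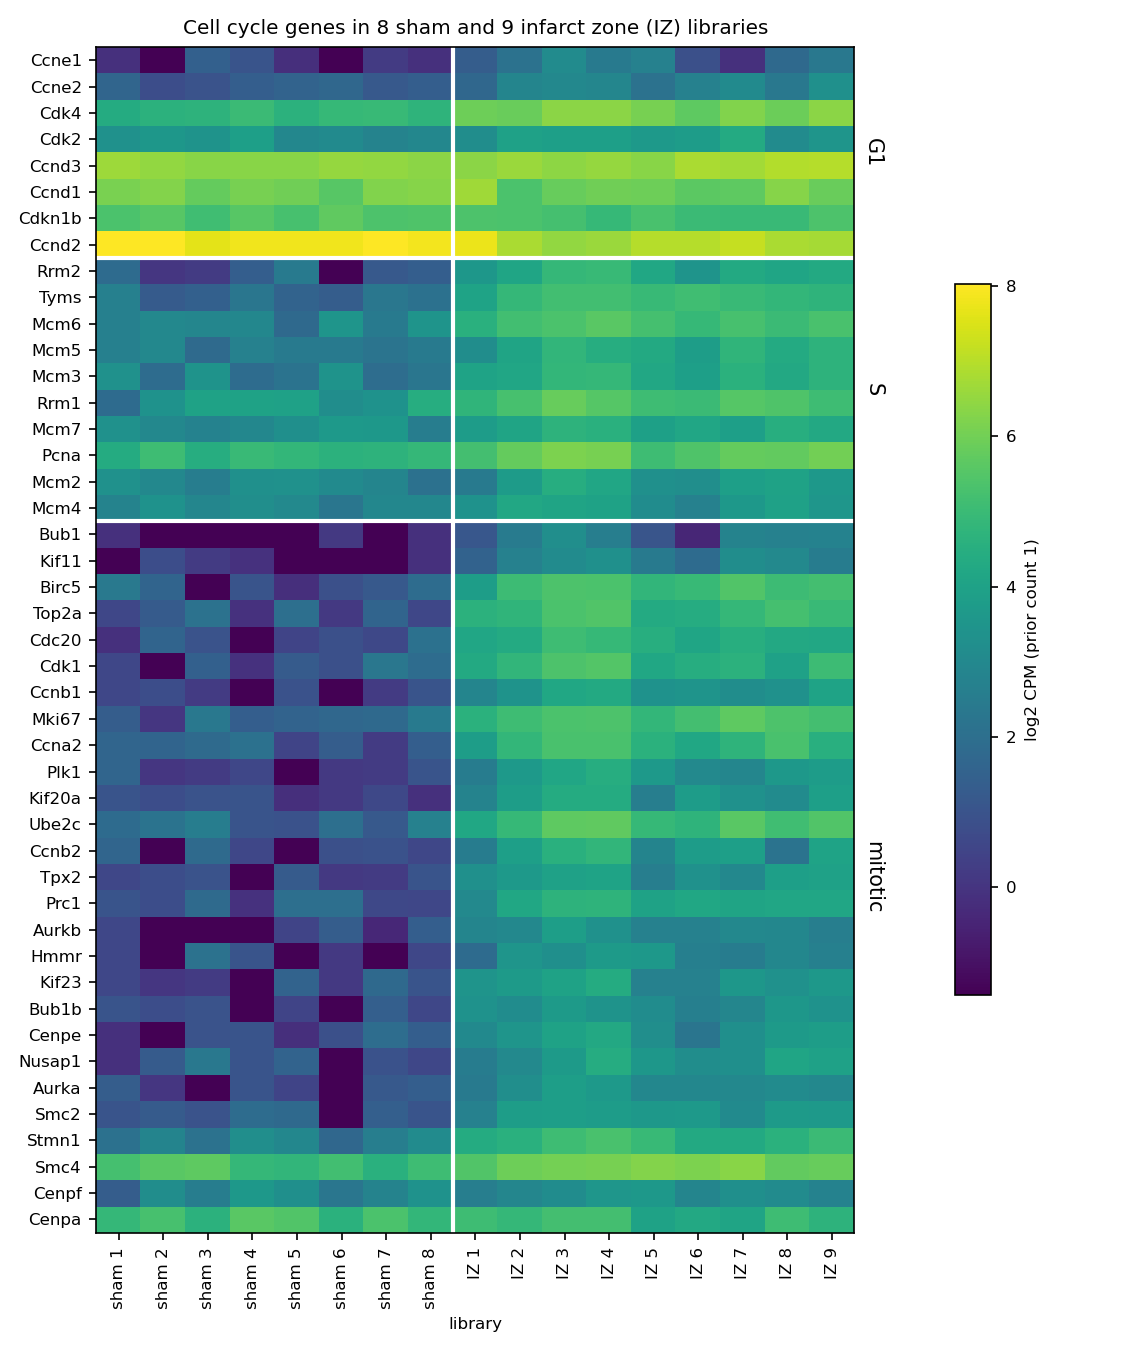
Level of each of the 45 genes (rows, grouped by phase and sorted by fold change within phase) in each library (columns), as log2 CPM with a prior count of 1. The D-type cyclins, Cdkn1b, Cenpa and Smc4 are bright in both groups, while most mitotic genes are dark in sham, where 0 counts give the lowest value of -1.45, and 22 of the 27 are brighter in all 9 IZ libraries than in any sham library.

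G1 genes did not move as a group. The D-type cyclins had the highest 3' end counts of all members in sham hearts, and 1 of the 3 changed. Ccnd2 (cyclin D2, chromosome 6, 127125162 to 127152193 on GRCm38) had 199, 232 and 262 CPM in sham as lowest, median and highest, and 90.3, 114 and 215 CPM in the IZ. Of the 9 IZ libraries, 8 lay below every sham library, and the exception at 215 CPM was IZ replicate 1. The log2 fold change was -0.91 ± 0.14 (SE, adjusted p = 5.94e-06), or 0.14 when libraries were scaled by total counts alone, a scaling that moved all genes up by a median of 1.09, to 1.14. Ccnd1 (cyclin D1, chromosome 7, 144929931 to 144939925) had 47.0, 69.0 and 78.9 CPM in sham and 40.6, 57.4 and 102 CPM in the IZ. The ranges overlapped, and the log2 fold change of -0.11 ± 0.15 (adjusted p = 0.524) was within the spread, again with the highest value in IZ replicate 1. Without that library it was -0.28 with an adjusted p of 0.0498, and under total count scaling it was 0.94, still below the median of all genes. Ccnd3 (cyclin D3, chromosome 17, 47505051 to 47599691) had 80.8, 87.4 and 99.1 CPM in sham and 81.6, 96.2 and 126 CPM in the IZ, a log2 fold change of 0.20 ± 0.11 (adjusted p = 0.109).

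The partner kinase differed from the D-type cyclins, while the log2 fold change of Cdkn1b lay within their range. Cdk4 (chromosome 10, 127063534 to 127067920), the kinase that D-type cyclins activate, had 20.8, 25.4 and 31.8 CPM in sham and 51.2, 66.8 and 83.7 CPM in the IZ. The groups did not overlap, and the log2 fold change was 1.38 ± 0.13 (adjusted p = 1.76e-09). Cdkn1b (p27, an inhibitor of cyclin-dependent kinases and a gene the study used as a reference for PCR, though not the only one) had 34.8, 42.0 and 51.5 CPM in sham and 29.3, 37.6 and 41.7 CPM in the IZ. Its log2 fold change of -0.25 ± 0.11 passed narrowly (adjusted p = 0.0475). That call was lost in 12 of the 17 fits that left out 1 library, and under total count scaling the value was 0.83, also below the median of all genes.

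The E-type cyclins were scarce in sham hearts. Ccne2 had 1.36, 2.23 and 2.94 CPM in sham and 2.90, 6.82 and 9.46 CPM in the IZ, with 8 of 9 IZ libraries above every sham library and a log2 fold change of 1.52 ± 0.27 (adjusted p = 2.86e-05). No sham library held more than 3 counts of Ccne1, and it did not pass the filter. Its pooled level was 5.81 times higher in the IZ (95% exact counting interval 3.15 to 11.9, from 11 and 147 counts, counting error only). By library, Ccne1 had 0.542 to 8.41 CPM in the IZ and at most 2.38 CPM in sham, with only 6 of 9 IZ libraries above every sham library. Cdk2, the kinase of the E-type cyclins, had 6.55, 8.97 and 14.5 CPM in sham and 8.26, 13.4 and 20.1 CPM in the IZ. The log2 fold change of 0.50 ± 0.20 (adjusted p = 0.0306) was small, 6 of 9 IZ libraries lay within the sham range, and the call was lost without sham replicate 5, 6, 7 or 8, with values of 0.42 to 0.47.

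All 10 S phase genes were higher in the IZ, and their log2 fold changes spread from 0.80 to 3.13. The 6 Mcm genes encode the subunits of 1 hexameric helicase that opens DNA at replication origins, but their log2 fold changes ran from 0.80 to 2.35. Mcm6 (chromosome 1, 128331590 to 128359664) had 3.11, 7.19 and 11 CPM in sham and 23.2, 36.8 and 48.1 CPM in the IZ, without overlap, and a log2 fold change of 2.35 ± 0.20 (adjusted p = 3.71e-10). Mcm5 had 3.17, 5.16 and 7.47 CPM in sham and 8.70, 20.1 and 27 CPM in the IZ, also without overlap, with 1.90 ± 0.23 (adjusted p = 1.17e-07). Its 3' end resembles 8 other genes at up to 96.2% identity, which held 3096 counts against 722 for Mcm5, so its level is uncertain. Mcm2 had 3.89, 7.78 and 9.85 CPM in sham and 5.07, 13.1 and 21.8 CPM in the IZ. Only 6 of 9 IZ libraries of Mcm2 lay above all sham libraries, and its log2 fold change was 0.80 ± 0.25 (adjusted p = 0.00644). Mcm3 (1.86 ± 0.25), Mcm7 (1.07 ± 0.19) and Mcm4 (0.80 ± 0.22) were also higher. Whether the 6 fold changes differ from each other was not tested.

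Among the other S phase genes, the enzymes of deoxynucleotide supply reached the largest differences. Rrm2, the cell cycle regulated subunit of ribonucleotide reductase, had 0, 2.07 and 5.18 CPM in sham and 10.5, 18.1 and 29.9 CPM in the IZ, a log2 fold change of 3.13 ± 0.33 (adjusted p = 1.96e-08). Rrm1, the large subunit of the same enzyme, had 3.28, 12.9 and 21.7 CPM in sham and 26.5, 38.5 and 56.0 CPM in the IZ, with 1.65 ± 0.22 (adjusted p = 7.38e-07). In both genes every IZ library lay above every sham library. Tyms, which makes thymidylate, had 2.04, 3.24 and 6.02 CPM in sham and 16.3, 30.0 and 35.6 CPM in the IZ, with 3.0 ± 0.21 (adjusted p = 3.10e-11), and the lowest IZ value again was that of replicate 1. A pseudogene 98.7% identical to part of the Tyms transcript held 204 counts in all libraries against 1034 for Tyms, so its level carries that uncertainty. Pcna, the sliding clamp of the replication fork, was the most abundant S phase gene in sham hearts, with 20.3, 26.7 and 33.9 CPM, and had 34.0, 54.8 and 71.7 CPM in the IZ. The groups nearly touched but did not overlap, and the log2 fold change was 1.01 ± 0.16 (adjusted p = 4.35e-06).

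Mitotic genes showed the largest differences of the set, from very low sham levels. Mki67 (Ki-67, chromosome 7, 135689784 to 135716361), the common marker of dividing cells, had 0.679, 2.76 and 5.00 CPM in sham, at most 9 counts, and 23.9, 35.9 and 51.0 CPM in the IZ. The groups were far apart, and the log2 fold change was 3.63 ± 0.22 (adjusted p = 3.77e-12). Top2a (topoisomerase II alpha, chromosome 11, 98992943 to 99024189) had 0.558, 1.57 and 3.96 CPM in sham and 19.8, 28.7 and 43.9 CPM in the IZ, with 3.92 ± 0.28 (adjusted p = 3.73e-11). Birc5 (survivin, chromosome 11, 117849251 to 117855743), a member of the chromosomal passenger complex, had 0, 1.80 and 4.93 CPM in sham and 13.8, 33.0 and 43.4 CPM in the IZ, with 3.93 ± 0.31 (adjusted p = 1.64e-10). In all of these genes each of the 9 IZ libraries exceeded each sham library.

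The cyclins and kinases that drive entry into mitosis were higher together. Cdk1 had 0, 1.77 and 4.62 CPM in sham and 15.5, 24.4 and 44.1 CPM in the IZ, a log2 fold change of 3.70 ± 0.34 (adjusted p = 1.95e-09). Of its cyclins, Ccna2 had 0.770, 2.47 and 3.90 CPM in sham and 13.8, 26.0 and 39.6 CPM in the IZ (3.62 ± 0.29, adjusted p = 2.50e-10). Ccnb1 had at most 3 counts in a sham library and 6.89, 10.4 and 19.4 CPM in the IZ, and its pooled level was 14.4 times higher (95% exact counting interval 8.36 to 27.3). For Ccnb2 the log2 fold change was 3.39 ± 0.47 (adjusted p = 9.86e-07). Plk1, a kinase of mitotic entry and spindle assembly, had 0, 0.781 and 2.74 CPM in sham and 5.44, 12.4 and 21.6 CPM in the IZ (3.49 ± 0.39, adjusted p = 4.44e-08). Aurkb, the kinase of the chromosomal passenger complex, had 0, 0.710 and 2.22 CPM in sham and 5.74, 7.23 and 14.2 CPM in the IZ (3.18 ± 0.41, adjusted p = 3.39e-07), and Aurka, which acts at the spindle poles, had a log2 fold change of 2.71 ± 0.35. None of these 7 genes had overlapping groups.

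Genes of mitotic exit and of the spindle followed the same direction. Cdc20, the activator of the anaphase-promoting complex, had 0, 1.31 and 3.89 CPM in sham and 17.1, 19.9 and 33.8 CPM in the IZ (3.86 ± 0.31, adjusted p = 2.11e-10). Ube2c, the ubiquitin-conjugating enzyme of that complex, had 1.55, 3.48 and 6.11 CPM in sham and 17.8, 34.6 and 51.5 CPM in the IZ (3.46 ± 0.28, adjusted p = 2.57e-10), but 8 other genes resemble its 3' end at up to 96.6% identity and held 12258 counts against 1282 for Ube2c, so its level is uncertain. The spindle checkpoint kinase gene Bub1 had 3 counts in all 8 sham libraries together and 174 in the IZ, a pooled ratio of 25.2 (95% exact counting interval 8.48 to 123), and the filter left it out. Bub1 lay above every sham library in 8 of 9 IZ libraries. Its relative Bub1b had a log2 fold change of 2.95 ± 0.33. The kinesin Kif11, which separates the spindle poles, had the highest fitted value, 3.99 ± 0.50 (adjusted p = 2.10e-07), on only 5 sham counts, with a pooled ratio of 18.7 (7.88 to 58.1). Kif20a, a kinesin of cytokinesis, had 16 sham counts and a ratio of 12.7 (7.76 to 22.5). The remaining spindle and cytokinesis genes, Kif23, Tpx2, Nusap1, Prc1, Hmmr and Cenpe, had log2 fold changes between 2.79 and 3.35, and for all but Hmmr, with 8 of 9, every IZ library lay above every sham library.

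The remaining genes of the mitotic group had smaller differences or did not pass. Of these, Stmn1 and Smc2 still had every IZ library above every sham library. Stmn1 (stathmin, which destabilises microtubules) had 2.94, 6.28 and 8.92 CPM in sham and 19.5, 24.3 and 39.4 CPM in the IZ, with 2.15 ± 0.21 (adjusted p = 6.43e-09). Smc2 and Smc4 form the core of condensin, but Smc2 had 0, 1.85 and 3.35 CPM in sham and 6.16, 12.5 and 14.2 CPM in the IZ (2.51 ± 0.28, adjusted p = 4.47e-08). Smc4 was already at 23.1, 34.6 and 50.7 CPM in sham, had 43.1, 66.3 and 81.9 CPM in the IZ and a log2 fold change of only 0.86 ± 0.15 (adjusted p = 3.32e-05). Cenpa, the histone H3 variant of centromeres, had 24.3, 33.5 and 48.0 CPM in sham and 15.9, 28.8 and 36.1 CPM in the IZ. Its log2 fold change of -0.33 ± 0.18 did not pass (adjusted p = 0.116), and under total count scaling it was 0.76, below the median of all genes as before. Cenpf, a kinetochore protein, had 2.19, 7.69 and 11.7 CPM in sham and 5.80, 8.26 and 11.9 CPM in the IZ, with 0.17 ± 0.25 (adjusted p = 0.556). The last bases of the Cenpf transcript resemble those of 19 other genes at up to 96.3% identity, and these held 15975 counts against 371 for Cenpf, so its level is uncertain. No such match of at least 100 bases at 95% identity was found for Cenpa or Smc4.

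**Figure D3:**
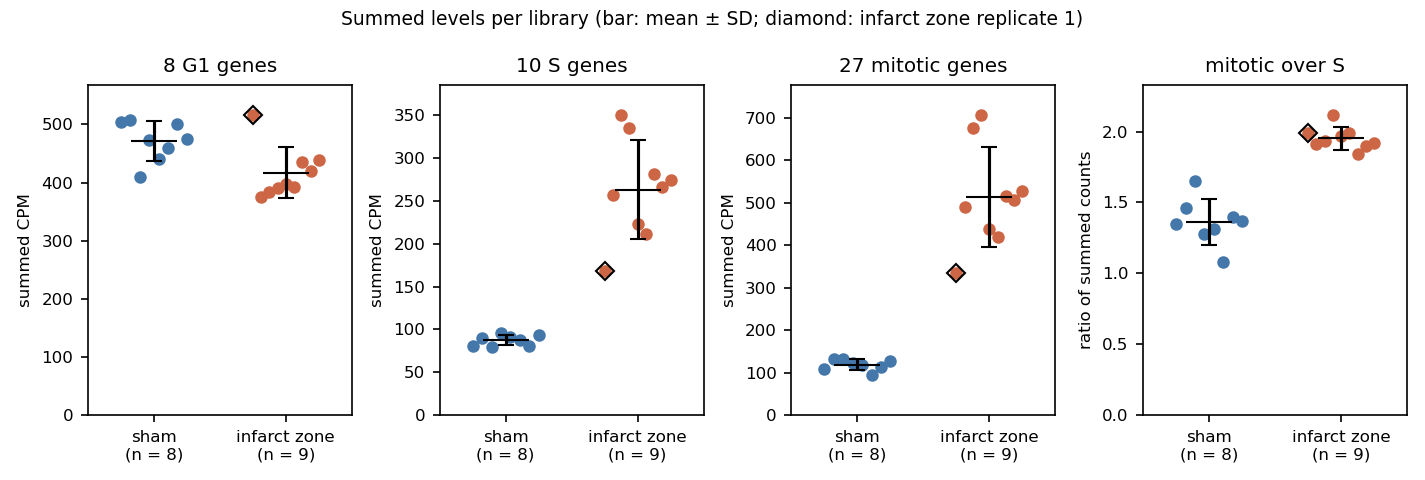
Summed CPM of the 8 G1, 10 S and 27 mitotic genes in each library, and the ratio of summed mitotic to summed S counts, with points for libraries, bars for mean ± SD and a diamond for IZ replicate 1. The IZ replicate 1 has the highest G1 sum (517 CPM) and the lowest S and mitotic sums of the IZ (168 and 334 CPM), but a mitotic to S ratio of 1.99 inside the range of the other IZ libraries.

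Summed over each phase, the libraries separated for S and mitotic genes and overlapped for G1 genes. The G1 sum averaged 472 CPM in sham, with an SD of 34.2 over 8 libraries, and 417 CPM with an SD of 43.7 over the 9 IZ libraries. The S sum was 87.4 ± 6.14 CPM in sham and 263 ± 57.8 CPM in the IZ, and the mitotic sum 119 ± 13.0 and 513 ± 118 CPM, without overlap in either. Without IZ replicate 1 the IZ means were 404 ± 23.8, 275 ± 48.7 and 536 ± 104 CPM (n = 8). The sham libraries were close to each other, whereas the IZ libraries spread from 168 to 351 CPM for S and from 334 to 708 CPM for mitotic genes, with replicates 3 and 4 highest in both. Replicates 3 and 4 were also among the 3 deepest IZ libraries, and the part of depth in this was not tested.

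Within a library the ratio of 2 counts does not depend on the scaling. The ratio of summed mitotic to summed S counts was 1.08 to 1.65 in sham and 1.84 to 2.12 in the IZ, so it was higher in every IZ library than in any sham library. In sham, however, 56.5 to 72.7% of the mitotic counts came from Cenpa, Cenpf and Smc4, and in the IZ 16.0 to 24.6%. With these 3 genes left out, a choice made after their values were seen, the ratio was 0.477 ± 0.110 in sham and 1.56 ± 0.0939 in the IZ. The IZ libraries thus differed by less in this ratio, from 1.46 to 1.78, than in the sum of the same 24 genes, from 252 to 595 CPM.

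Ratios within 10 pairs of related genes were compared by exact two-sided permutation over all 24310 assignments of the libraries to groups, with Benjamini-Hochberg adjustment over the 10 pairs, and 6 differed. Cdk1, Mki67, Smc2 and Rrm2 reached the filter's level in 0 sham libraries, and their partners reached it in 7 or 8. Each of them passed the filter through its IZ counts, so a shift of its ratio was largely given beforehand. Their p values are no independent support, and ratios on 0 counts are set by the prior count, such as Cdk1 to Cdk2 in sham replicate 2 (-5.13). The log2 ratio of Cdk1 to Cdk2 was -2.44 ± 1.56 in sham (SD, n = 8) and 1.01 ± 0.48 in the IZ (SD, n = 9), a difference of 3.45 (exact permutation p = 4.11e-05, the smallest p this design can give, adjusted 0.000137). The mitotic kinase was thus scarcer than Cdk2 in all sham libraries and more abundant in all IZ libraries. The ratio of Cdk4 to its inhibitor gene Cdkn1b changed sign in the same way, from -0.95 to -0.44 in sham to 0.51 to 1.51 in the IZ, a difference of 1.62 with the same exact permutation p. For Mki67 over Pcna the difference was 2.67, also with this exact permutation p and no overlap. Ccnd1 gained on Ccnd2 by 0.81 (exact permutation p = 0.000165, adjusted 0.000411), in 9 of 9 IZ libraries above all sham libraries, so the D-type cyclins did not change by the same factor. Smc2 gained on Smc4 by 1.72 (exact permutation p = 0.000247, adjusted 0.000494), with 8 of 9 IZ libraries above all sham libraries, and Rrm2 on Rrm1 by 1.60 (exact permutation p = 0.00539, adjusted 0.00898), here with 0 of 9 IZ libraries above all sham libraries, since sham replicate 1 had a log2 ratio of 0. The remaining 4 pairs did not pass. Differences were 0.62 for Ccne1 over Ccne2, 0.29 for Ccnb1 over Ccnb2, -0.41 for Aurka over Aurkb and -0.32 for Ccnd1 over Ccnd3, with adjusted exact permutation p values of 0.356, 0.685, 0.571 and 0.176. Counts of single digits in sham give the first 3 of these wide sham spreads, with SDs of 1.14, 2.0 and 1.70.

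**Figure D4:**
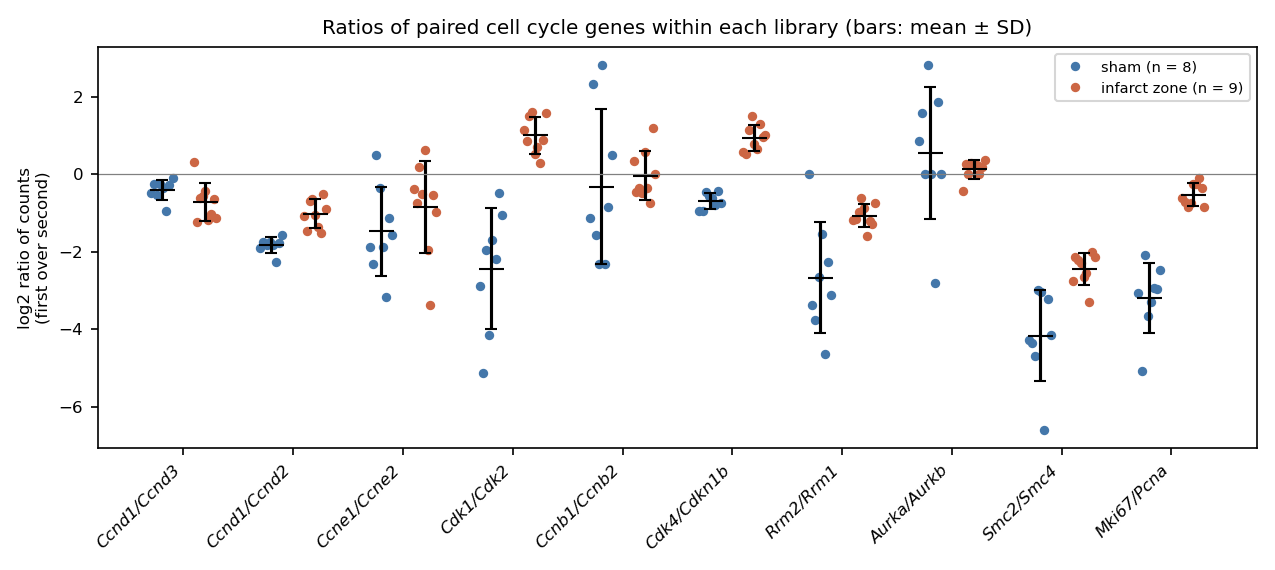
Log2 ratio of the counts of 10 gene pairs in each library, with a prior count of 0.5, blue for the 8 sham and orange for the 9 IZ libraries, and bars for mean ± SD. Cdk1/Cdk2 and Cdk4/Cdkn1b lie below 0 in all sham and above 0 in all IZ libraries, while Ccnb1/Ccnb2 and Aurka/Aurkb scatter widely in sham.

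Promoter sequence was examined because most S and mitotic genes were higher in the IZ, though to different degrees. E2F factors and MuvB, named above, bind known elements before the start sites of such genes. RefSeq sequence of GRCm38.p6 was at hand for 35 of the 45 genes, with 38 start sites, and the 250 bases before each were searched on both strands. The windows of the Prc1 start sites overlap, and each was counted. Elements were the CCAAT box (CCAAT, bound by NF-Y), the CHR or cell cycle genes homology region (TTTGAA, bound by MuvB), and E2F-type elements (TTCCCGC or TTGGCGC or TTCGCGC or TTGCCGC). Of 38 member start sites 32 had a CCAAT box before them (84.2%), against 33.8% of 32851 mouse start sites and 34.5% of those of genes tested here. A CHR was present before 9 of 22 start sites of mitotic genes (40.9%), 1 of 10 of S genes and 0 of 6 of G1 genes, against 10.6% for genes tested. E2F-type elements stood before 6 of 10 start sites of S genes (60.0%), 4 of 22 of mitotic genes (18.2%) and 1 of 6 of G1 genes (16.7%), against 13.7%. All 10 genes with a CHR also held a CCAAT box. They were Ccnb2, Cdc20, Cdk1, Kif11, Mki67, Prc1, Smc2, Top2a and Ube2c, with log2 fold changes from 2.51 to 3.99, and Mcm2 at 0.80. Cenpa and Cenpf, which passed in neither direction, held 2 CCAAT boxes each and no CHR. The exact sequence TTTGAA was also missing before Birc5 (3.93), Ccnb1 (3.70), Plk1 (3.49), Hmmr (3.07) and Kif23 (2.99). The same held for Bub1b (2.95), Cenpe (2.89), Nusap1 (2.79) and Aurka (2.71), so all of these lay within the range of the mitotic genes with a CHR. Other forms of the CHR were not searched. No match was found for Ccne1, Cdk4, Tyms, Birc5 or Nusap1, and Aurkb, Ccna2, Ccnd1, Ccnd2, Ccne2, Kif20a, Mcm4, Smc4, Stmn1 and Tpx2 had no window. A match of a few letters is a description and shows no binding.

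The windows of 6 genes show how the elements are arranged, chosen after the matches were seen as 3 mitotic, 2 S phase and 1 G1 example. Capitals mark the matches, ATTGG is a CCAAT box and TTCAAA a CHR on the other strand, and a longer run in capitals is a pair of overlapping E2F-type elements. Each is written 5' to 3' on the strand of its gene and ends at the base before the start site. The mitotic windows are Cdk1 (chr10:69352913-69353162, minus strand), Top2a (chr11:99024190-99024439, minus strand) and Cdc20 (chr4:118437344-118437593, minus strand).
Cdk1: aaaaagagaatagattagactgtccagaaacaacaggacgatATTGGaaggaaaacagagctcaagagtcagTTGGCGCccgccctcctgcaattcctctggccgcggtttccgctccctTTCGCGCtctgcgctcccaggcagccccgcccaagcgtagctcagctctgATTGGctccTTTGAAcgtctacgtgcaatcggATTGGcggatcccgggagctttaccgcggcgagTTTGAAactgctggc
Top2a: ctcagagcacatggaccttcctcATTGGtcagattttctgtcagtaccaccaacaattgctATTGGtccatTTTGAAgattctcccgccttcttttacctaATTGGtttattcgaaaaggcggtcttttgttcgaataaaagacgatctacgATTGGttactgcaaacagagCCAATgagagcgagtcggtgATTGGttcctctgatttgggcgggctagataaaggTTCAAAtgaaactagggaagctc
Cdc20: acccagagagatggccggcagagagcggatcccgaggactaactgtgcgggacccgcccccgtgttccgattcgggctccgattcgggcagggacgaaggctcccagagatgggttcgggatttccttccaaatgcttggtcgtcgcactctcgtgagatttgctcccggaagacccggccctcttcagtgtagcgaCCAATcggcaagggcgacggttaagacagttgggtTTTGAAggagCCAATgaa
The S phase windows are Mcm6 (chr1:128359706-128359955, minus strand) and Mcm5 (chr8:75109259-75109508, plus strand), and the G1 window is that of the second start site of Ccnd3 (chr17:47593217-47593466, plus strand).
Mcm6: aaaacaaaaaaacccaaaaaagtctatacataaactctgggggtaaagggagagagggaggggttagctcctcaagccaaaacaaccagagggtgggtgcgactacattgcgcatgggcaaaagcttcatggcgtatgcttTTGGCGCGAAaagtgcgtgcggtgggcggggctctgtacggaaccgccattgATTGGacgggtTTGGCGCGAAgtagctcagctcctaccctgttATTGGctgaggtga
Mcm5: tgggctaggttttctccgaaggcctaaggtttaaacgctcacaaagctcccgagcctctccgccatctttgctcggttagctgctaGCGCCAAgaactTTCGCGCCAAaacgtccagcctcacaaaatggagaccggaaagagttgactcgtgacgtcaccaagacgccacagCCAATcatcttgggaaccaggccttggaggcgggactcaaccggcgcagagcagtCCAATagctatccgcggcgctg
Ccnd3: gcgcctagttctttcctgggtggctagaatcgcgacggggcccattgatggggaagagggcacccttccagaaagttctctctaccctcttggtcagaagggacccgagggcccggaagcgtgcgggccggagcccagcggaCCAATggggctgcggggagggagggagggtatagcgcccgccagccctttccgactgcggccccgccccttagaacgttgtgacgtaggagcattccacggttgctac
In Cdk1, Top2a and Cdc20 a CHR stands within the last 25 bases before the start site, with at least 1 CCAAT box before it. Mcm6 and Mcm5 hold overlapping E2F-type pairs and CCAAT boxes but no CHR, and the Ccnd3 window holds 1 CCAAT box.

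**Figure D5:**
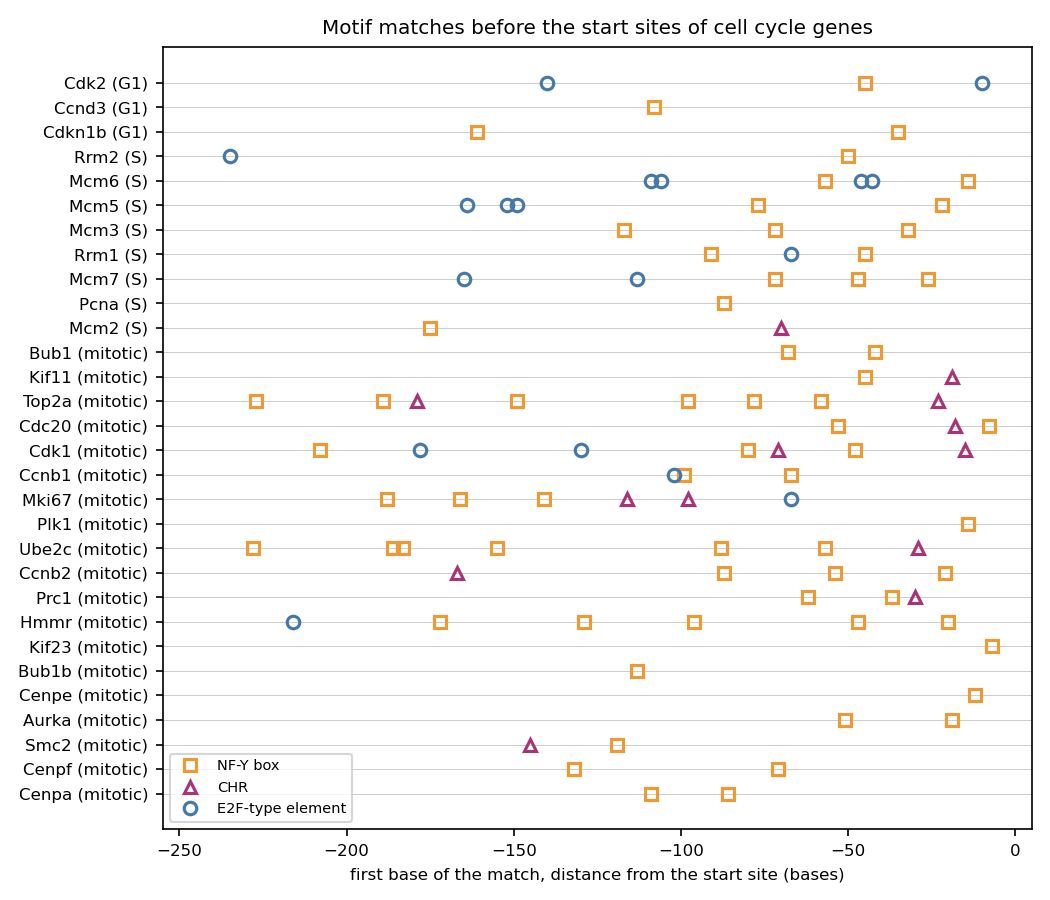
Position of each CCAAT box (bound by NF-Y, orange squares), CHR (purple triangles) and E2F-type element (blue circles) in the 250 bases before the start sites of the 30 members with a match, each row 1 gene and the x axis the distance in bases from its start site. CCAAT boxes gather near the start, with 44 of 65 matches in the last 100 bases, and 12 of the 13 CHR matches are in mitotic genes. Prc1 and Mcm7 have more than 1 start site in their row, and the overlapping Prc1 windows hold the same CCAAT box, counted in each.

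Other genes of the same pathways, 149 in 13 lists, were split more evenly. Of 127 tested, 79 were higher, 22 lower and 26 passed in neither direction, with a median log2 fold change of 0.75, beside 36.3% higher and 33.1% lower among all genes tested. Those shares are the background for each list named next, and nothing is read from a list near them. Of the 127, 55 were above the filter's level in every sham library, and genes that passed it only through their IZ counts had to differ. The kinetochore and spindle checkpoint list had 10 of 11 tested genes higher and 0 lower, from Bub3 at 0.60 to Nuf2 at 3.69, and the other spindle and cytokinesis list had 11 of 12 higher, up to Cep55 at 4.28. Its exception was Racgap1, a partner of Kif23 in the central spindle, which was lower in the IZ with a log2 fold change of -2.29 ± 0.18 (adjusted p = 1.43e-10). Only 2 of those 11 and 1 of those 12 tested genes were above the filter's level in every sham library, so the comparison with all genes is limited for both lists. The lists hold 16 and 17 genes, and the others were not tested. In the list of condensin and cohesin, 5 of 10 were higher, led by Ncapg at 3.97, and Rad21 was lower at -0.24. Of the 17 genes of the anaphase-promoting complex and sister separation, 8 were higher, up to the inhibitor Fbxo5 at 3.31, and 4 lower, down to securin (Pttg1) at -2.08, with 107 ± 20.0 CPM in sham and 25.5 ± 10.2 CPM in the IZ.

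Lists of mitotic entry, its transcription factors and replication differed in their counts. Of the kinases and phosphatases of mitotic entry and the checkpoints, Cdc25c (3.41), Chek1 (1.75), Cdc25b (1.70), Pkmyt1 (1.48), Chek2 (1.23) and Cdc25a (0.85) were higher and Wee1 (0.30) did not pass. In this list 0 of 7 genes were above the filter's level in every sham library. Foxm1 was higher at 3.12, as were the MuvB genes Lin9 (2.09) and Lin54 (0.70), while Lin52 was lower at -1.47, Lin37 (0.59) and Rbbp4 (0.20) did not pass and Mybl2 was not tested. Only 1 of these 6 tested genes was above the filter's level in every sham library. Foxm1 had at most 4 counts in a sham library, so it passed the filter through its IZ counts. In the list of origin licensing and firing, 6 of 11 tested genes were higher, up to Dbf4 at 3.04, and 3 lower, down to the licensing inhibitor Gmnn at -1.37. Polymerases and fork proteins had 12 of 20 higher, up to Uhrf1 at 3.36, and 3 lower, down to Pold2 at -0.65. For nucleotide synthesis Tk1 (2.14), Dck (1.69), Umps (0.84) and Cad (0.74) were higher, Rrm2b (-1.23) and Dctpp1 (-0.64) were lower and Dut (0.01) did not pass. Rrm2b, the p53-inducible counterpart of Rrm2, thus moved opposite to Rrm2.

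Among the inhibitors of cyclin-dependent kinases, Cdkn2b had 0.328 ± 0.464 CPM in sham and 6.64 ± 3.14 CPM in the IZ (4.31 ± 0.55, adjusted p = 3.06e-07), and Cdkn1a (p21) had 16.8 ± 6.79 and 49.2 ± 7.38 CPM (1.55 ± 0.18, adjusted p = 1.01e-07). Cdkn2b had at most 2 counts in a sham library, so it passed the filter through its IZ counts and had to differ. Cdkn2c was higher at 0.75, Cdkn1c (p57) was lower at -1.74, Cdkn2d (0.10) did not pass and Cdkn2a was not tested. Cdk6, the relative of Cdk4, was higher at 1.36. Of 11 tested genes of the E2F and pocket protein list 5 were higher, led by E2f1 at 2.84, and 3 lower, with Tfdp2 lowest at -2.12. In this list 6 of the 11 were above the filter's level in every sham library, and E2f1 had at most 8 counts in a sham library. Among p53 targets, Phlda3 (2.32), Gadd45b (1.83), Zmat3 (1.43) and Sesn2 (1.25) were higher, Ccng1 (-2.05), Btg2 (-1.36) and Gadd45a (-1.09) were lower and Mdm2 (-0.19) did not pass.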

How the data were processed

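Transcript 3' ends were counted in 8 sham left ventricles and 9 infarct zones, grouped by the labels, each library being a separate mouse. The authors trimmed reads with Cutadapt, mapped them to mm10 and counted them with HTSeq; Bowtie2 and DESeq2 stand in the submitters' processing notes. The deposited values are raw counts per gene, without normalization, after removal of PCR duplicates by molecular identifiers. The handling of multi-mapped reads is not given in the sources used here. The 31647 features include 35 merged groups of overlapping genes, kept in the fit without a gene name. Counts were tested with edgeR 4.0.16 (limma 3.58.1, R 4.3.3), using filterByExpr (minimum 10 counts), TMM scaling (factors 0.613 to 1.54), the two-sided quasi-likelihood F-test and Benjamini-Hochberg adjustment over 12301 genes at a threshold of 0.05. CPM use TMM-scaled library sizes. Totals of 1237675 to 4738307 counts limit the precision of low genes. Intervals cover counting error only.

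The members, phases and lists were chosen with earlier results of these data known. Values are given for all 45 members singly or by range, in full for those of the main roles, the extremes of each phase and members not called or lower. In each other list the highest and lowest called genes, and all genes of lists of up to 8, are named, except 1 gene that is not reported here. The procedure was tested on simulated data. Alternatives were the Wald test of DESeq2 1.42.0, its size factors, upper quartile and total count scaling, no filter, a minimum mean of 50 counts, thinning, leaving out mitochondrially encoded genes, a block for the replicate number, and leaving out each library. Similar transcripts were sought with BLAST 2.17.0 over the last 500 bases. Python 3.11.15, NumPy 2.4.6, pandas 2.3.3, SciPy 1.17.1 and Matplotlib 3.10.9 were used for ratios, sequences and plots.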

Additional observations from a re-analysis of the deposited data

Results flagged for a closer look

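In 110 groups of libraries checked, 9 members or ratios had 1 library far from the others of its group, measured by its gap relative to the range of the group. Chance alone flags about 1 in 20 such groups. Infarct zone replicate 1 was far below the other IZ libraries for Tyms, at a log2 CPM of 4.06 against 4.72 to 5.17, for Birc5, at 3.82 against 4.78 to 5.45, and for Prc1, at 3.0 against 4.02 to 4.72. The same library had the lowest log2 ratio of Aurka to Aurkb, -0.43 against 0.00 to 0.36. In sham, Mki67 had its lowest log2 CPM, 0.06, in replicate 2, which is 1 count, against 1.35 to 2.42 in the others. Tpx2 was at -1.45 in sham replicate 4 and Smc2 at -1.45 in sham replicate 6, both on 0 counts, so that these values are set by the prior count. Sham replicate 6 also had the lowest log2 ratio of Smc2 to Smc4, -6.60 against -4.69 to -2.99, and of Ccnd1 to Ccnd2, -2.28 against -1.90 to -1.56. No explanation for these values was tested.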

How the results depend on the processing

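Total count scaling raised the median of all genes by 1.09 on the log2 scale, upper quartile scaling by 0.11 and the absence of a filter by 0.19. Under total count scaling the medians were 3.87 for all members, 1.29 for G1, 2.85 for S, 4.36 for mitotic genes and 1.84 for the other lists, with 6 G1 genes higher, 0 members lower and 6 genes of the other lists lower. Under that scaling Ccnd1 (0.94), Ccnd2 (0.14), Cdkn1b (0.83) and Cenpa (0.76) turned to positive values, all below the median of all genes, 1.14. With a minimum mean of 50 counts, which tests fewer genes, 13 members were higher (1 G1, 4 S, 8 mitotic) and 1 lower, with medians of 1.92 for all members and -0.09 for G1, and the other lists had 17 higher, 14 lower and a median of 0.03. Thinned to the smallest total, 1 G1 gene was higher and 1 lower, the median of all members was 2.31, 44 genes of the other lists were higher, and the Smc2 to Smc4 difference was 1.51 with an adjusted p of 0.0978. Upper quartile scaling and no filter each left 1 member lower, a G1 gene. Ccnd3 passed under upper quartile (0.31) and total count scaling (1.29), and Cenpf under the latter (1.26). The DESeq2 test called the same numbers of members, 37 higher and 2 lower.

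Leaving out each library gave 34 to 37 members higher and 1 to 3 lower, the latter all G1 genes (1 to 3), with medians of 2.62 to 2.89. Two-sided exact tests then also passed for Ccnd1 over Ccnd3 without infarct zone replicate 1 (-0.45, exact permutation, adjusted p = 0.0167; range -0.45 to -0.25) and for Aurka over Aurkb without sham replicate 6 (-0.89, exact permutation, adjusted p = 0.0336; range -0.89 to -0.09). Ccnd3 passed without infarct zone replicate 5 (0.25). The cause of these changes was not tested. Replicate numbers 1 to 8 occur in both groups but do not pair the libraries. Same-numbered libraries had correlations of -0.22 to 0.13 between their deviations from the group means, and 1 of 8 correlated best with its own number. With the number as a block, 36 members were higher and 1 lower, a G1 gene (Ccnd2), and the calls of Cdk2 (0.50) and Cdkn1b (-0.29) were lost.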
